A study of Mus musculus with 6 samples.

Results

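Interleukin receptors are the surface proteins through which leukocytes and vessel wall cells receive interleukin signals. Every row of both deposited expression tables was taken here whose gene symbol begins with Il, a number and r, with the antagonist gene Il1rn left out. This gave 43 of 36557 rows, which carry 40 gene symbols. RNA from the aortic arch and thoracic aorta of mice had been sequenced in 2 groups of 3 libraries each. The first genotype was Apoe-/- MiR26b-/-, in which the microRNA gene Mir26b is deleted, and the other was Apoe-/- control, so that all animals lacked apolipoprotein E. All had received a high-fat diet for 4 weeks, and the vessels had been rinsed with saline before removal. Apolipoprotein E helps the liver to take up lipoprotein remnants, and its loss raises plasma cholesterol and leads to plaques in the arterial wall. The labels used here give no age, sex or strain, and do not say in which cells MiR26b was deleted or whether each library came from 1 animal. The p-values below therefore describe the spread between libraries, part of which may be technical.

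Most interleukin receptors are built from chains that are shared between cytokines. A private chain, such as the IL-7 receptor alpha chain encoded by Il7r, recognises 1 cytokine or a small group, and a shared chain, such as the common gamma chain encoded by Il2rg, completes the complex and passes the signal on. Receptors of the haematopoietin type signal through Janus kinases and STAT proteins, those of the IL-1 and IL-18 family through MyD88 and IRAK kinases, and those of the IL-17 family through the adaptor encoded by Traf3ip2. Interleukin signalling in the atherosclerotic wall is known from recruited macrophages and T cells as well as from smooth muscle cells, endothelium and fibroblasts. The 40 receptor genes were sorted from textbook knowledge into 16 used mainly by leukocytes, 11 used mainly by stromal, epithelial or endothelial cells, 10 used broadly by both, and 3 that belong to none of these.

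The deleted microRNA and its possible sites in receptor transcripts are shown first, because the genotype removes the microRNA and a site is where it could act directly. The mature strand (RefSeq, GRCm38.p6, chromosome 1, 74394324 to 74394344, plus strand) is printed with its seed, bases 2 to 8, in capitals, and below it are 3′ UTR windows of GRCm38 around the matching letters, with the match in capitals. Of the 9 tested receptors with a site, those printed are the 4 with the largest differences between the genotypes and Il17rd, which had the lowest.
mmu-miR-26b-5p: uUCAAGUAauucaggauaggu
Il12rb2 site: cgtccagtgccACTTGAAaggttcaagac
Il2rg site: tccatatgcccTACTTGAgagtgtccctt
Il4ra site: gccagcagagaACTTGAAtatgatgttca
Il17ra site: aagacaagaaaACTTGAAaataaagtagg
Il17rd site: gctctggcttcACTTGAActctggctact

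The Il12rb2 window lies on chromosome 6 from 67291701 to 67291729 on the minus strand, and that of Il2rg on chromosome X from 101264676 to 101264704 on the minus strand. The Il4ra window lies on chromosome 7 from 125578343 to 125578371 and the Il17ra window on chromosome 6 from 120485703 to 120485731, both on the plus strand. That of Il17rd spans bases 27101721 to 27101749 of chromosome 14, plus strand. In the longest annotated 3′ UTR, 9 of 32 tested receptors held a site of at least 7 bases, either ACTTGAA or TACTTGA on the transcript strand. That is 28.1% of the receptors, against 20.9% of 16133 tested genes with a 3′ UTR, and the receptors' 3′ UTRs were also longer, with a median of 1859 against 1192 bases. The full site of 8 bases was in 0 of the 32 receptors, against 4.82% of all tested genes. The 9 genes were Il12rb2, Il2rg, Il4ra, Il17ra, Il18rap, Il1rap, Il1rl1, Il6ra and Il17rd. Their median log2 difference between the genotypes was 0.40, with a range from -0.14 to 2.25, and 1 of them, Il12rb2, passed the test described below. The 23 tested receptors without a site had a median of 0.23, ranged from -1.74 to 2.86, and included 5 that passed. A letter match is a description of the sequence and does not show that the microRNA binds there.

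Depth was similar in all libraries, with 51634139 to 54817547 deposited counts. On the first principal component, which held 61.9% of the variance, the Apoe-/- MiR26b-/- libraries were at 47.05, 55.72 and 0.97 and the Apoe-/- control libraries lay between -45.35 and -25.42, so that knockout replicate 3 stood between the groups. The microRNA deletion could not be checked, since the tables hold 0 rows for microRNA genes. Smooth muscle markers were abundant, with Acta2 at 8735 to 10030 CPM in Apoe-/- MiR26b-/- and 13160 to 14880 CPM in Apoe-/- control libraries. CPM are counts scaled to a common library total and are used here for differences of 1 gene. TPM are corrected for transcript length and are used to compare genes with each other.

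Of the 40 receptor genes, 32 had enough counts in a row for a test and 8 were too low to judge row by row. The filter asked for about 10 counts, or 0.191 CPM, in at least 3 libraries. The 8 genes below it were Il12rb1 and Il23r among the leukocyte receptors, Il11ra2, Il20ra and Il22ra1 among the stromal ones, and Il1rapl1, Il1rapl2 and Il22ra2, which were assigned to no class. Their counts ran from 0 to 21.7 per library. Il12rb1 (2 rows) and Il11ra2 (3 rows) had identical values in each row, which are shares of the same reads split over gene copies. With copies summed, both genes had enough counts for a test and neither passed. The log2 difference was 1.09 for Il12rb1 (adjusted p 0.168) and 0.12 for Il11ra2 (adjusted p 0.886). Il20ra, a chain of the receptors for IL-19, IL-20 and IL-24, had 14.1, 16.03 and 9.10 counts in Apoe-/- MiR26b-/- libraries and 1.02, 0.900 and 0 counts in Apoe-/- control libraries. Its groups did not overlap, and it had an adjusted p of 0.0241 when no filter was used, but fewer than 3 counts in each control library, the floor used here, give no fold. Another 5 genes were tested at a mean log2 CPM under 0 and are described as low, namely Il12rb2, Il5ra and Il9r among the leukocyte receptors, Il13ra2 among the stromal ones and Il17rb among the broad ones. Il1r2 reached the cutoff in 3 Apoe-/- MiR26b-/- libraries but in only 2 Apoe-/- control libraries.

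Per transcript length, the aortic receptor RNA was dominated by Il11ra1, which encodes the alpha chain of the IL-11 receptor. It had 288, 292 and 294 TPM in Apoe-/- MiR26b-/- libraries and 244, 277 and 243 TPM in Apoe-/- control libraries. That was 40.5% to 52.6% of the summed TPM of all receptors in Apoe-/- MiR26b-/- libraries and 51.4% to 53.2% in Apoe-/- control libraries. By the mean over all 6 libraries, next came Il10rb, the shared chain of the IL-10 family, with 58.7 ± 14.7 TPM in Apoe-/- MiR26b-/- and 34.6 ± 3.08 TPM in Apoe-/- control libraries (SD, n = 3 each), and then Il17rc with 31.4 ± 2.78 TPM in Apoe-/- MiR26b-/- and 36.5 ± 0.676 TPM in Apoe-/- control libraries. The order of the means differed between genotypes, but not in every library, and it was not tested. In Apoe-/- MiR26b-/- libraries the means of Il4ra, 45.8 TPM, and Il1r1, 35.5 TPM, were above that of Il17rc, and in Apoe-/- control libraries Il17rc and Il10rb overlapped and Il4ra, at 19.9 TPM, lay below both. In knockout replicate 3, Il17rc at 34.5 TPM lay above Il1r1 at 22.8 TPM and Il4ra at 22.0 TPM, as in the control libraries. In all, 9 receptors had a mean of at least 10 TPM in both genotypes, 23 had at least 1 TPM in both, and 14 were under 1 TPM in both. Il7r had 12.7 ± 6.62 TPM in Apoe-/- MiR26b-/- and 1.77 ± 0.824 TPM in Apoe-/- control libraries.

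**Figure D1:**
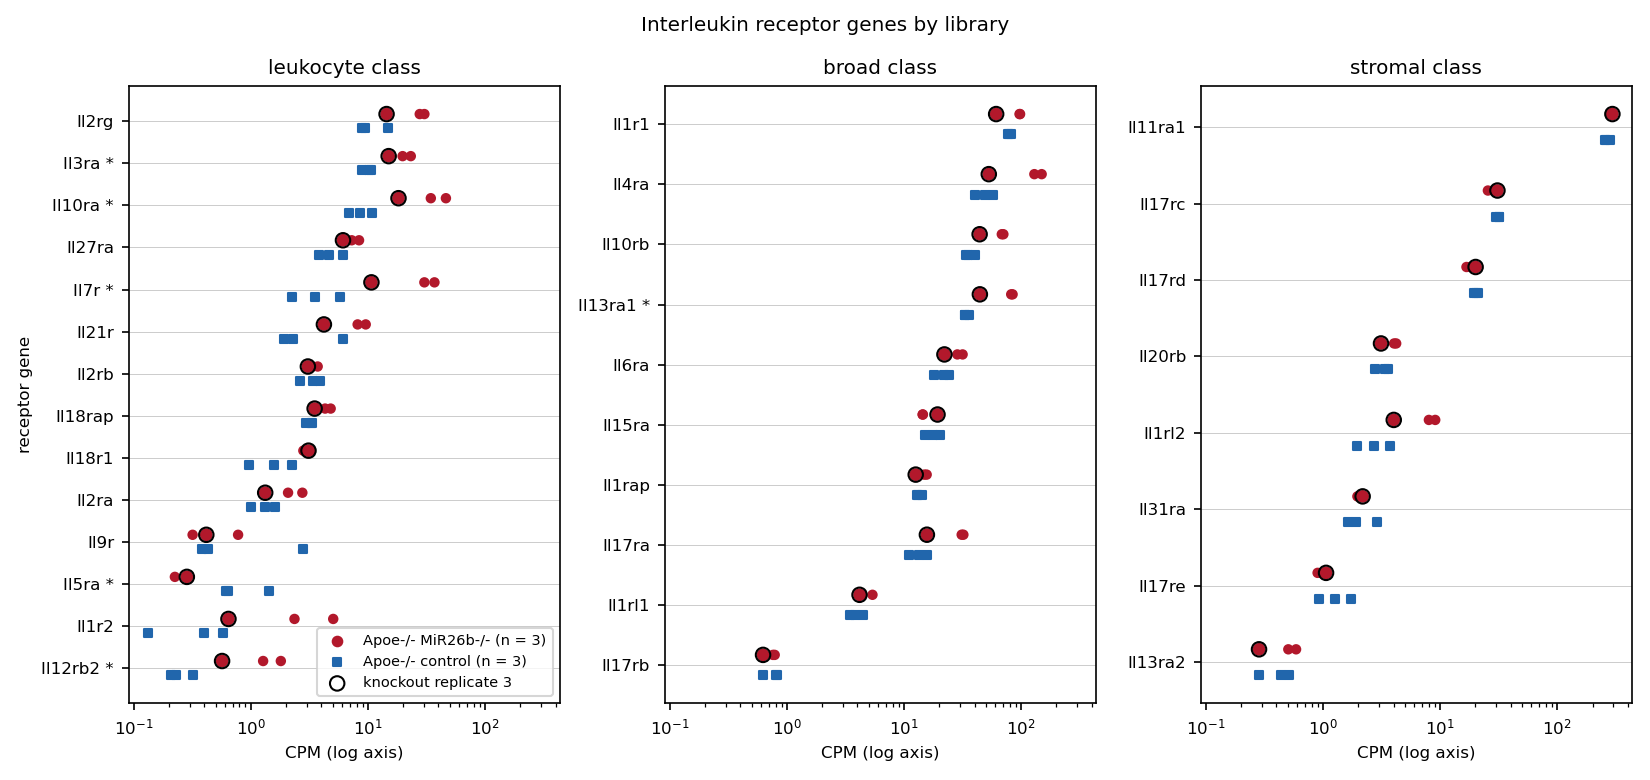
CPM on a log axis for the 32 tested interleukin receptor genes, 1 row per gene and 1 panel per class; circles above each line are the 3 Apoe-/- MiR26b-/- libraries, squares below it the 3 Apoe-/- control libraries, an outlined circle marks knockout replicate 3, and a star marks genes that passed the test. For Il7r all 3 circles lie right of the squares, while the circles and squares of Il17rc in the stromal panel interleave.

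The comparison asked how the receptors differ in the vessel wall when MiR26b is absent. Of the 32 tested receptors, 5 were higher and 1 was lower in Apoe-/- MiR26b-/- than in Apoe-/- control libraries at an adjusted p under 0.05. Among all 17392 tested genes, 6.5% were higher and 3.84% were lower by the same rule, so the single lower receptor is near the share found for any gene. The 5 higher receptors were Il3ra, Il10ra, Il7r, Il12rb2 and Il13ra1, and the lower one was Il5ra. Values did not overlap between genotypes for 12 higher and 1 lower receptor, against 18.9% of all tested genes higher and 17.2% lower. The median log2 difference of the 32 receptors was 0.38, against -0.003 for all tested genes. These counts depend on single libraries. When knockout replicate 3 was left out, 37 receptors entered the test, of which 17 were higher and 1 lower, against 17.2% and 11.4% of all tested genes. The 17 include Il12rb1 and Il20ra, whose rows were too low to judge over all 6 libraries. Both reached the cutoff in 2 knockout and 0 control libraries. They thus entered this fit only through the group where they are high, which favours a higher call. When any one of control replicates 1, 2 or 3 or knockout replicates 1 or 2 was left out, 0 receptors passed in either direction, with 11 to 16 higher and 1 or 2 lower at an unadjusted p under 0.05. Over all genes, 0 to 71 passed in these 5 omissions and 3710 to 4627 had an unadjusted p under 0.05, so the loss of calls was not limited to receptors. DESeq2 gave 12 higher and 1 lower, against 11.9% and 7.66% of all tested genes.

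The leukocyte receptors held 4 of the 5 higher genes, and Il7r had the largest difference among them. Il7r (ENSMUSG00000003882, GRCm38 chromosome 15, 9505788 to 9530176, minus strand) encodes the alpha chain for IL-7, which lymphocytes need to survive, and it also serves in the TSLP receptor. Il7r had 30.3, 36.9 and 10.7 CPM in Apoe-/- MiR26b-/- libraries and 5.73, 3.52 and 2.24 CPM in Apoe-/- control libraries. All knockout values lay above all control values, and knockout replicate 3 was the closest to the controls. The log2 difference was 2.76 (SE 0.54), a 6.78-fold higher level with an adjusted p of 0.0337. Leaving out each library in turn gave 5.35-fold to 9.01-fold, with adjusted p from 0.00155 to 0.130.

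Il10ra, the ligand-binding chain of the receptor for the anti-inflammatory cytokine IL-10, is expressed mainly by haematopoietic cells. Il10ra (ENSMUSG00000032089, chromosome 9, 45253837 to 45269149, minus strand) had 34.4, 46.3 and 18.2 CPM in Apoe-/- MiR26b-/- libraries and 8.47, 10.8 and 6.94 CPM in Apoe-/- control libraries. The groups did not overlap, and the log2 difference was 1.92 (SE 0.35, adjusted p 0.0322), which is 3.77-fold. Its partner Il10rb, which is broadly expressed, had 68.3, 70.4 and 44.2 CPM in Apoe-/- MiR26b-/- and 40.4, 35.1 and 33.6 CPM in Apoe-/- control libraries. Those groups did not overlap either, but with a log2 difference of 0.74 (SE 0.18) the adjusted p of 0.0505 just missed the threshold.

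The third gene, Il3ra, encodes the alpha chain for IL-3, a growth factor of myeloid progenitors, basophils and plasmacytoid dendritic cells, and is also found on endothelium. Il3ra (ENSMUSG00000068758, chromosome 14, 14346275 to 14356011, plus strand) had 19.8, 23.2 and 15.0 CPM in Apoe-/- MiR26b-/- libraries and 10.2, 10.7 and 8.98 CPM in Apoe-/- control libraries. It had the lowest p of the receptors, with a log2 difference of 0.96 (SE 0.17, adjusted p 0.0304), or 1.94-fold, and knockout replicate 3 again was the lowest knockout while still above every control. IL-3 signals through beta chains, which the pattern for receptor symbols does not take, and both beta chain genes were higher. Csf2rb had 75.8, 91.5 and 23.5 CPM in Apoe-/- MiR26b-/- and 15.7, 13.3 and 7.30 CPM in Apoe-/- control libraries, a log2 difference of 2.39 (SE 0.53, adjusted p 0.0420). For Csf2rb2, the mouse-specific beta chain for IL-3, the log2 difference was 2.62 (SE 0.51, adjusted p 0.0340). These genes are close paralogs, so reads may be split between them.

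Il12rb2, the IL-12 receptor chain typical of T helper 1 and natural killer cells, rose, at a low level. Il12rb2 (ENSMUSG00000018341, chromosome 6, 67291318 to 67376188, minus strand) had 1.27, 1.80 and 0.568 CPM in Apoe-/- MiR26b-/- libraries and 0.321, 0.231 and 0.209 CPM in Apoe-/- control libraries. The groups did not overlap and the log2 difference was 2.25 (SE 0.47, adjusted p 0.0374). Its obligate partner Il12rb1 was too low to judge in either of its 2 rows, which split the same reads. Each row was at 0.279 ± 0.114 TPM in Apoe-/- MiR26b-/- and 0.121 ± 0.0531 TPM in Apoe-/- control libraries (SD, n = 3 each). With both rows summed, Il12rb1 was tested and did not pass (log2 1.09, adjusted p 0.168).

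Il5ra, the alpha chain for IL-5 on eosinophils and mouse B-1 cells, was the only receptor that passed in the lower direction. Il5ra (ENSMUSG00000005364, chromosome 6, 106710357 to 106749037, minus strand) had 0.225, 0.285 and 0.284 CPM in Apoe-/- MiR26b-/- libraries and 0.643, 1.42 and 0.609 CPM in Apoe-/- control libraries. The groups did not overlap and the log2 difference was -1.74 (SE 0.41, adjusted p 0.0455), which is 3.35-fold lower, at a level that makes it one of the 5 low genes. Over Apoe-/- MiR26b-/- libraries the 6 B cell markers summed to 12.99 to 29.0 CPM. Control replicate 2, where Il5ra was highest, also had the highest sum of these markers, 74.3 CPM, against 9.05 to 12.0 CPM in the other control libraries. Without control replicate 2 the log2 difference of Il5ra was -1.24 with an adjusted p of 0.0846. Of 4 eosinophil genes that were looked up after the values of Il5ra were seen, Siglecf alone was high enough for a test, with a log2 difference of 1.91 (SE 0.49, adjusted p 0.0549), and the granule protein gene Epx was at 0 in 5 of 6 libraries. Prg2 was highest in control replicate 2, at 0.327 CPM, and had at most 0.0757 CPM in any other library. Ccr3 had 0.114 to 0.626 CPM in Apoe-/- MiR26b-/- and 0.0756 to 0.0960 CPM in Apoe-/- control libraries. The part of B cells in the Il5ra difference was not tested beyond these values.

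The other leukocyte receptors did not pass. Il2rg, the common gamma chain, had 27.7, 30.3 and 14.4 CPM in Apoe-/- MiR26b-/- and 9.39, 14.8 and 8.80 CPM in Apoe-/- control libraries, and knockout replicate 3 lay within the control range. Its log2 difference was 1.14 (SE 0.32, adjusted p 0.0692). For Il21r, the IL-21 chain of B and T cells, values were 8.16, 9.57 and 4.20 CPM in Apoe-/- MiR26b-/- and 2.27, 6.15 and 1.90 CPM in Apoe-/- control libraries, with control replicate 2 above knockout replicate 3 (log2 1.09, SE 0.51, adjusted p 0.208). Il27ra, the private IL-27 chain, had 7.26, 8.39 and 6.12 CPM in Apoe-/- MiR26b-/- and 4.63, 6.11 and 3.79 CPM in Apoe-/- control libraries, which nearly touch (log2 0.58, SE 0.21, adjusted p 0.113). The signalling chain of the IL-18 receptor, Il18rap, had 4.305, 4.802 and 3.504 CPM in Apoe-/- MiR26b-/- and 3.23, 3.32 and 2.99 CPM in Apoe-/- control libraries (log2 0.40, SE 0.15, adjusted p 0.129), and the binding chain Il18r1 was at a log2 difference of 0.94 (SE 0.29, adjusted p 0.0870). The groups of both IL-18 chains did not overlap. Il1r2, a decoy receptor that binds IL-1 without signalling, had the largest fitted difference of the 32, 2.86 on the log2 scale, with the large SE of 0.82 and an adjusted p of 0.0709. It ranged from 0.644 to 5.05 CPM over Apoe-/- MiR26b-/- libraries and from 0.133 to 0.576 CPM over Apoe-/- control libraries. The IL-2 chains Il2ra and Il2rb had log2 differences of 0.65 (adjusted p 0.213) and 0.03 (adjusted p 0.929). Il9r, low and with 2.79 CPM in control replicate 2 against 0.318 to 0.778 CPM in the other libraries, had a log2 difference of -1.25 (adjusted p 0.366).

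None of the 8 tested stromal receptors passed the test in either direction. With 6.5% of all tested genes higher and 3.84% lower, 0 of 8 is near the share for any gene. Il11ra1 had 288, 294 and 295 CPM in Apoe-/- MiR26b-/- and 259, 284 and 255 CPM in Apoe-/- control libraries, groups that did not overlap but lay close together (log2 0.14, SE 0.06, adjusted p 0.181). Its reads may be split with the near-identical copies of Il11ra2. Il17rc, the chain that pairs with Il17ra for IL-17A and IL-17F, had 28.6, 25.6 and 30.8 CPM in Apoe-/- MiR26b-/- and 29.7, 31.96 and 31.97 CPM in Apoe-/- control libraries, which overlapped (log2 -0.14, SE 0.08, adjusted p 0.291). Il17rd, an orphan member of that family known to modulate growth factor signalling, had 16.8, 18.2 and 20.1 CPM in Apoe-/- MiR26b-/- and 20.2, 21.1 and 19.3 CPM in Apoe-/- control libraries (log2 -0.14, SE 0.08, adjusted p 0.314). In TPM the Il17rc groups did not overlap, and every Apoe-/- MiR26b-/- library lay below every Apoe-/- control library. The SEs of Il11ra1, Il17rc and Il17rd are the smallest among the receptors.

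Il20rb, a shared chain for IL-19, IL-20 and IL-24, had 4.21, 4.04 and 3.12 CPM in Apoe-/- MiR26b-/- and 2.76, 3.59 and 3.37 CPM in Apoe-/- control libraries, which overlapped (log2 0.23, SE 0.17, adjusted p 0.416). Il1rl2, the IL-36 receptor of epithelia and some myeloid cells, departed most from 0 in this class, with 8.01, 9.07 and 4.01 CPM in Apoe-/- MiR26b-/- and 2.74, 3.75 and 1.96 CPM in Apoe-/- control libraries. Its groups did not overlap, and the log2 difference was 1.32 (SE 0.36, adjusted p 0.0634). The IL-31 chain Il31ra, the IL-17C chain Il17re and the IL-13 decoy receptor Il13ra2 had log2 differences of -0.04, -0.40 and 0.15, with adjusted p of 0.933, 0.344 and 0.803.

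Among the 10 broad receptors, all of which were tested, Il13ra1 alone passed. With 6.5% of all tested genes higher, 1 of 10 is near the share for any gene. Il13ra1 (ENSMUSG00000017057, chromosome X, 36112110 to 36171259, plus strand) pairs with Il4ra to form the type II receptor for IL-4 and IL-13. It had 84.4, 82.2 and 44.4 CPM in Apoe-/- MiR26b-/- libraries and 35.8, 33.3 and 33.4 CPM in Apoe-/- control libraries. Knockout replicate 3 lay just above the narrow control range, and the log2 difference was 1.04 (SE 0.23, adjusted p 0.0429), or 2.06-fold. Il4ra had 130, 150 and 52.9 CPM in Apoe-/- MiR26b-/- libraries and 40.05, 49.5 and 57.4 CPM in Apoe-/- control libraries. Here knockout replicate 3 was inside the control range, and the log2 difference of 1.18 (SE 0.37) had an adjusted p of 0.0877.

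Il1r1, the signalling receptor for IL-1, had 97.8, 96.8 and 61.1 CPM in Apoe-/- MiR26b-/- and 77.0, 79.0 and 81.2 CPM in Apoe-/- control libraries, so that knockout replicate 3 lay below all controls and the other knockouts above them (log2 0.11, SE 0.18, adjusted p 0.712). Il15ra, which presents IL-15 to neighbouring cells, had 14.4, 14.5 and 19.3 CPM in Apoe-/- MiR26b-/- and 20.3, 17.6 and 15.0 CPM in Apoe-/- control libraries, which overlapped (log2 -0.14, SE 0.16, adjusted p 0.6002). Il17ra, the common chain of the IL-17 family, had a log2 difference of 0.97 (SE 0.28, adjusted p 0.0742), with 15.7 to 32.1 CPM in Apoe-/- MiR26b-/- and 11.1 to 15.8 CPM in Apoe-/- control libraries. The IL-6 chain Il6ra was at 0.36 (adjusted p 0.194), the IL-33 receptor Il1rl1 at 0.24 (adjusted p 0.347), the IL-1 family accessory chain Il1rap at 0.09 (adjusted p 0.596) and the IL-25 chain Il17rb at -0.05 (adjusted p 0.892), all on the log2 scale.

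**Figure D2:**
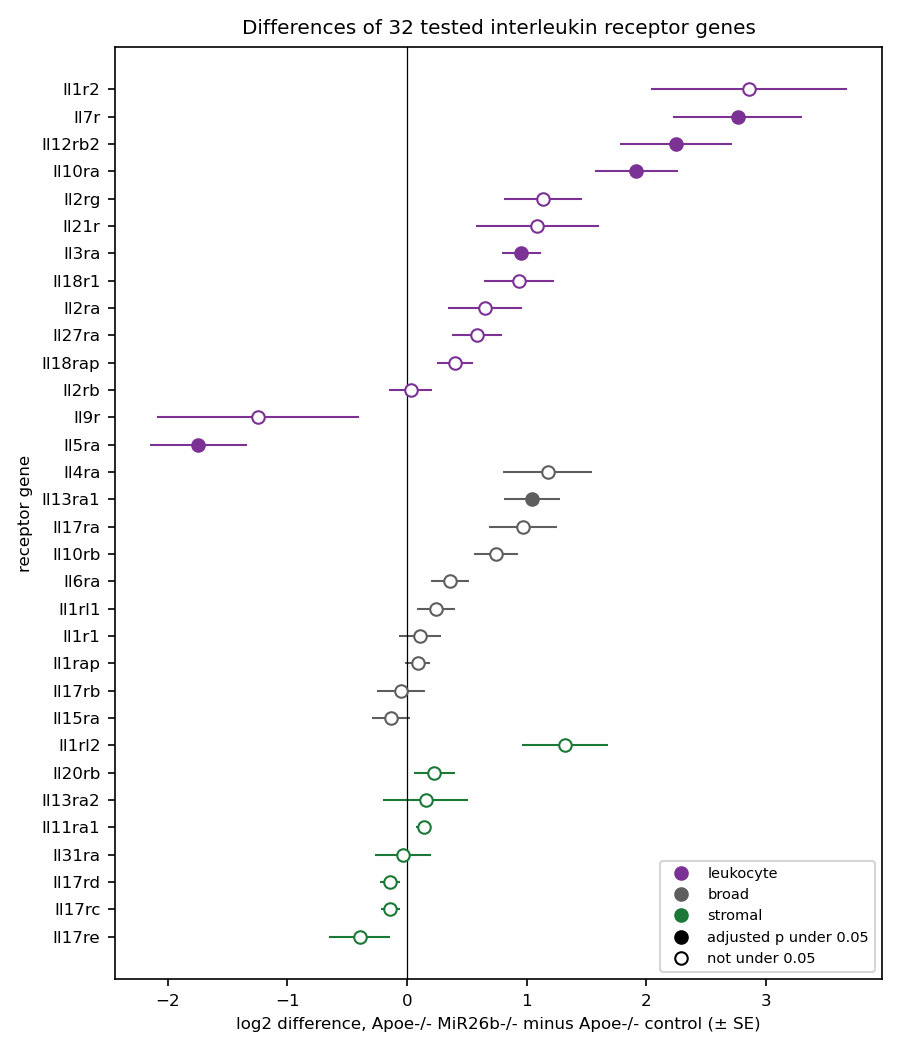
Log2 difference (Apoe-/- MiR26b-/- minus Apoe-/- control) with its SE for the 32 tested interleukin receptor genes, grouped by class; filled points had an adjusted p under 0.05. Filled points to the right of 0 are Il7r, Il12rb2, Il10ra and Il3ra in the leukocyte class and Il13ra1 in the broad class, and none are in the stromal class.

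Set side by side, the 14 tested leukocyte receptors had a median log2 difference of 0.95, with 4 higher and 1 lower. The 10 broad receptors had a median of 0.30, with 1 higher and 0 lower, and the 8 stromal receptors had a median of 0.05, with 0 higher and 0 lower. Of all tested genes 6.5% were higher and 3.84% lower. In single libraries, the leukocyte median over the control mean was 0.93, 1.15 and 0.46 on the log2 scale in Apoe-/- MiR26b-/- libraries and 0.00, 0.34 and -0.32 in Apoe-/- control libraries, so that every knockout lay above every control. The stromal median was 0.02, 0.09 and -0.01 in Apoe-/- MiR26b-/- and -0.05, 0.11 and -0.03 in Apoe-/- control libraries, and these overlapped. Summed CPM of the leukocyte receptors were 145, 178 and 82.0 in Apoe-/- MiR26b-/- and 51.9, 67.8 and 43.0 in Apoe-/- control libraries, and those of the stromal receptors were 350, 356 and 358 in Apoe-/- MiR26b-/- and 318, 349 and 317 in Apoe-/- control libraries. No p is given for a class or for the difference between classes. The classes were chosen with earlier results of these data known, and some members are used by cells of more than 1 class.

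Leukocyte marker lists varied in their medians, and the counts that rose or fell stand against 6.5% and 3.84% of all tested genes. The median log2 differences were 1.72 for neutrophil, 1.61 for macrophage, 1.60 for natural killer cell and 1.52 for dendritic cell markers. They were 0.47 for T cell, -0.01 for innate type 2 lymphoid cell, -0.10 for mast cell and -1.66 for B cell markers. Over the control mean, the B cell median was -1.44, -0.74 and -1.13 in Apoe-/- MiR26b-/- libraries. In Apoe-/- control libraries it was -0.71, 1.91 and -1.20, so that control replicate 2 stood far above all other libraries. The B cell marker Cd22 went the other way, at a log2 difference of 1.08 (adjusted p 0.389). The 5 pan-leukocyte markers had a median log2 difference of 2.10, and 3 of them, Itgb2, Laptm5 and Cd53, rose, while Ptprc, which encodes the leukocyte surface antigen CD45, had 74.8, 89.8 and 38.3 CPM in Apoe-/- MiR26b-/- and 23.5, 37.4 and 11.1 CPM in Apoe-/- control libraries (log2 1.49, SE 0.48, adjusted p 0.0926). Summed, the pan-leukocyte markers were at 229 to 653 CPM in Apoe-/- MiR26b-/- and 77.8 to 159 CPM in Apoe-/- control libraries. Of 7 macrophage markers 6 rose and 1, Mertk, fell, with sums of 1082 to 2864 CPM in Apoe-/- MiR26b-/- and 536 to 641 CPM in Apoe-/- control libraries. Of 7 dendritic cell markers 4 rose, Itgax, Cd209a, Flt3 and Xcr1 (sums of 73.2 to 155 CPM in Apoe-/- MiR26b-/- and 36.1 to 41.7 CPM in Apoe-/- control libraries). Of 4 tested natural killer cell markers 2 rose, Klrk1 and Klrb1c (2.90 to 4.10 CPM in Apoe-/- MiR26b-/- and 0.742 to 1.86 CPM in Apoe-/- control libraries).

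Of 6 tested neutrophil markers 1 rose, Csf3r (sums of 17.6 to 62.8 CPM in Apoe-/- MiR26b-/- and 10.3 to 18.2 CPM in Apoe-/- control libraries), while the defining gene Ly6g was at or near 0 in every library, with at most 0.0576 CPM. Of 8 T cell markers, 6 B cell markers and 7 mast cell markers 0 passed in either direction. The T cell markers summed to 12.7 to 29.1 CPM in Apoe-/- MiR26b-/- and 7.47 to 20.9 CPM in Apoe-/- control libraries, and the mast cell markers to 29.1 to 48.2 CPM in Apoe-/- MiR26b-/- and 27.6 to 51.0 CPM in Apoe-/- control libraries. Of 4 tested markers of innate type 2 lymphoid cells, 1 of which is the receptor Il17rb itself, Rora alone fell. The sums of 56.9 to 63.9 CPM in Apoe-/- MiR26b-/- and 72.5 to 73.9 CPM in Apoe-/- control libraries are mostly Rora. Rora itself had 47.99 to 55.03 CPM in Apoe-/- MiR26b-/- and 64.22 to 66.25 CPM in Apoe-/- control libraries. Icos went the other way, with groups that did not overlap (log2 1.76, SE 0.44, adjusted p 0.0518). Gata3 and Il17rb were at log2 differences of 0.02 and -0.05. In bulk tissue, more cells of a type and more RNA of a gene in each cell cannot be told apart.

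Markers of the vessel wall also differed. Of 5 smooth muscle markers 3 fell, Acta2, Tagln and Cnn1, with sums of 20880 to 24640 CPM in Apoe-/- MiR26b-/- and 30840 to 35450 CPM in Apoe-/- control libraries. Of 6 fibroblast markers 3 rose, Pdgfra, Dcn and Lum, with sums of 5219 to 7003 CPM in Apoe-/- MiR26b-/- and 3815 to 4411 CPM in Apoe-/- control libraries, and of 6 endothelial markers Cdh5 and Tie1 rose, with sums of 1738 to 1922 CPM in Apoe-/- MiR26b-/- and 1568 to 1995 CPM in Apoe-/- control libraries. Adipocyte markers, of which 0 of 6 passed, summed to 366, 552 and 1537 CPM in Apoe-/- MiR26b-/- libraries and 1965, 1208 and 587 CPM in Apoe-/- control libraries, so that knockout replicate 3 held more of them than the other knockouts. The part of these markers in the receptor differences was not tested.

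**Figure D3:**
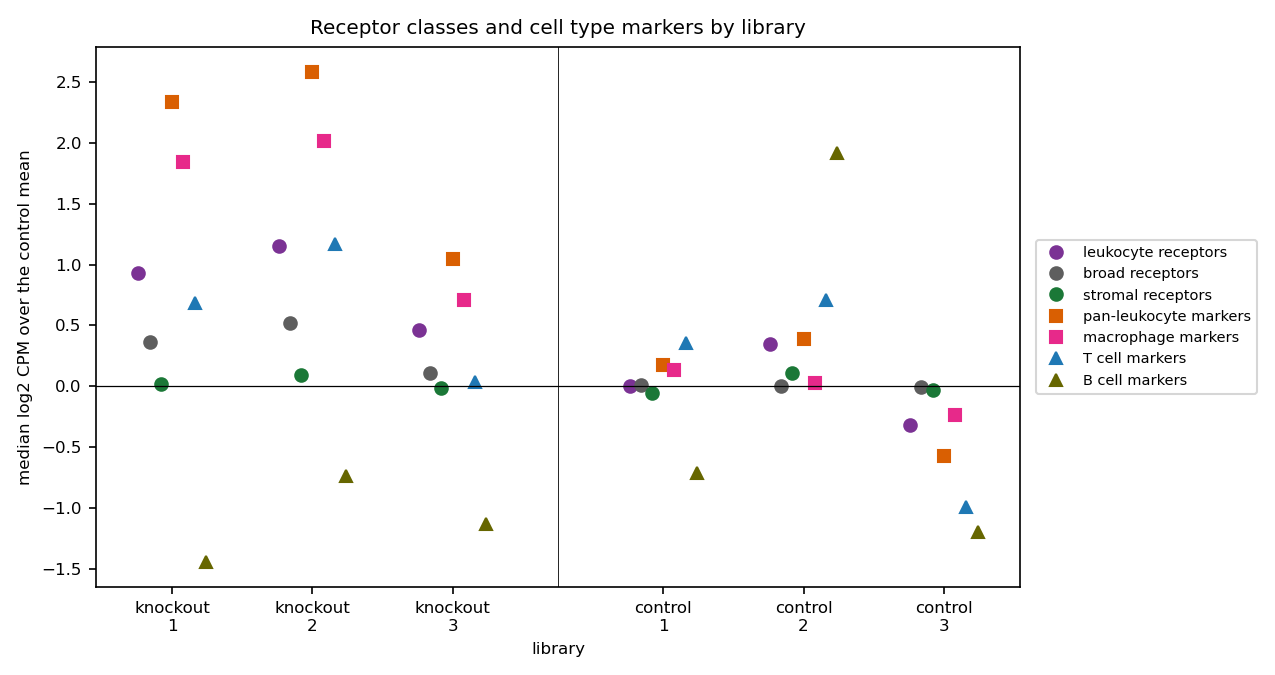
Median log2 CPM over the control mean for 3 receptor classes and 4 marker lists in each library, knockouts left of the line and controls right of it; replicates are separate libraries and points are offset sideways for legibility. Leukocyte receptors, pan-leukocyte and macrophage markers lie above 0 in all 3 knockouts, stromal receptors lie between -0.05 and 0.11 in all 6 libraries, and B cell markers are high in control replicate 2.

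The leukocyte receptors were also set against Ptprc. Il7r stood at 40.5, 41.1 and 28.0 CPM per 100 CPM of Ptprc in Apoe-/- MiR26b-/- libraries and at 24.3, 9.39 and 20.2 in Apoe-/- control libraries. It was the only 1 of the 14 tested leukocyte receptors whose ratio was higher in every knockout than in every control. Il10ra was at 46.0, 51.5 and 47.6 per 100 of Ptprc in Apoe-/- MiR26b-/- and at 35.98, 28.8 and 62.4 in Apoe-/- control libraries, which overlapped. Il12rb2 overlapped too, with means of 1.73 in Apoe-/- MiR26b-/- and 1.29 in Apoe-/- control libraries, and Il3ra had means of 30.5 in Apoe-/- MiR26b-/- and 50.9 in Apoe-/- control libraries. The ratio was lower in every knockout than in every control for 5 genes, Il2rg, Il27ra, Il2rb, Il9r and Il5ra, and the median log2 difference of the 14 ratios was -0.59. For the broad and stromal receptors, the medians of the same ratio were -1.27 and -1.50. Ptprc itself was at a log2 difference of 1.49, so the ratio of a gene with an unchanged level falls. No share over all genes was computed for these ratios. These ratios rest on 1 denominator gene, whose level differed by over 3 times between control replicates 2 and 3, and they carry no p.

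**Figure D4:**
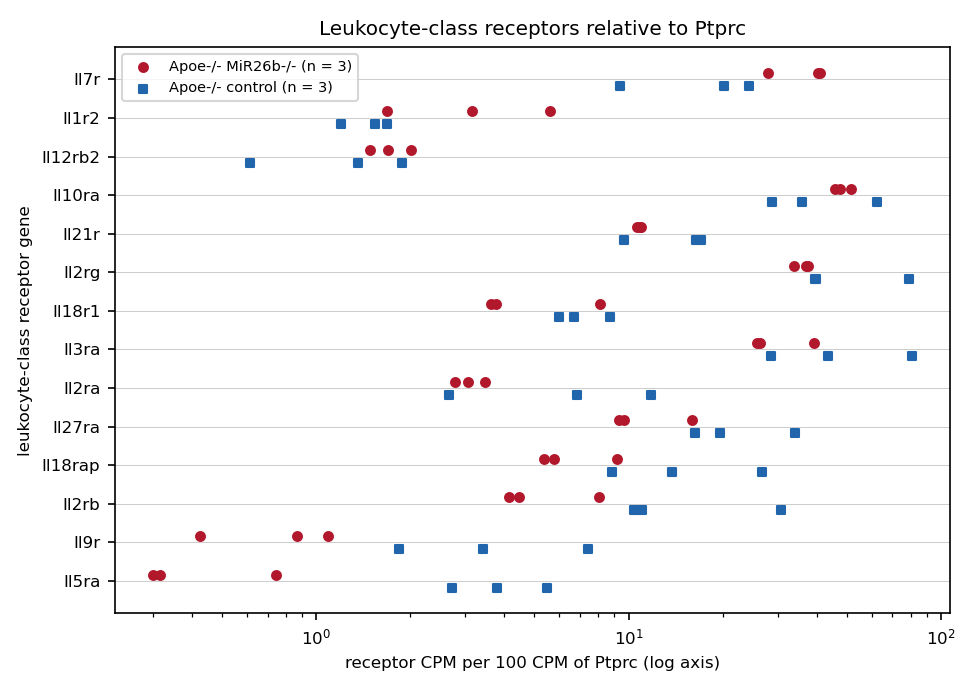
CPM of each tested leukocyte receptor per 100 CPM of Ptprc on a log axis; circles above each line are the 3 Apoe-/- MiR26b-/- libraries and squares below it the 3 Apoe-/- control libraries. Il7r is at the top, with circles from 28.0 to 41.1 and squares from 9.39 to 24.3, and Il5ra is at the bottom.

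Levels of the chains of 1 complex were compared per transcript length, and no difference between chains was tested. In some complexes the log2 differences of the chains were close, as for the IL-13 receptor, with 1.04 for Il13ra1 and 1.18 for Il4ra, and for the IL-1 receptor, with 0.11 for Il1r1 and 0.09 for Il1rap, and all 3 chains listed for IL-3 rose. For IL-7, the private chain Il7r was at 12.7 ± 6.62 TPM in Apoe-/- MiR26b-/- and 1.77 ± 0.824 TPM in Apoe-/- control libraries, below its partner Il2rg at 26.7 ± 9.81 TPM in Apoe-/- MiR26b-/- and 12.2 ± 3.53 TPM in Apoe-/- control libraries (SD, n = 3 each). For TSLP, the other chain Crlf2 had a log2 difference of 0.31 (adjusted p 0.251). For IL-6 and IL-11, the shared signal chain Il6st was abundant, at 163 ± 12.2 TPM in Apoe-/- MiR26b-/- and 136 ± 0.765 TPM in Apoe-/- control libraries, with a log2 difference of 0.30 (SE 0.08, adjusted p 0.0591). Il6st far exceeded Il6ra, at 8.04 ± 1.80 TPM in Apoe-/- MiR26b-/- and 6.23 ± 0.782 TPM in Apoe-/- control libraries, and lay below Il11ra1. For IL-17A, Il17rc exceeded Il17ra in every library, with Il17ra at 9.84 ± 2.62 TPM in Apoe-/- MiR26b-/- and 4.98 ± 0.822 TPM in Apoe-/- control libraries.

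Of the 7 partner chains that lie outside the symbol pattern, 3 rose and 0 fell, against 6.5% and 3.84% of all tested genes. The 3 were Csf2rb, Csf2rb2 and Sigirr, an inhibitory member of the IL-1 receptor family with a log2 difference of 0.63 (SE 0.13, adjusted p 0.0370). Lifr was at 0.01 (adjusted p 0.917) and Osmr at 1.10 (SE 0.31, adjusted p 0.0661) on the log2 scale.

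**Figure D5:**
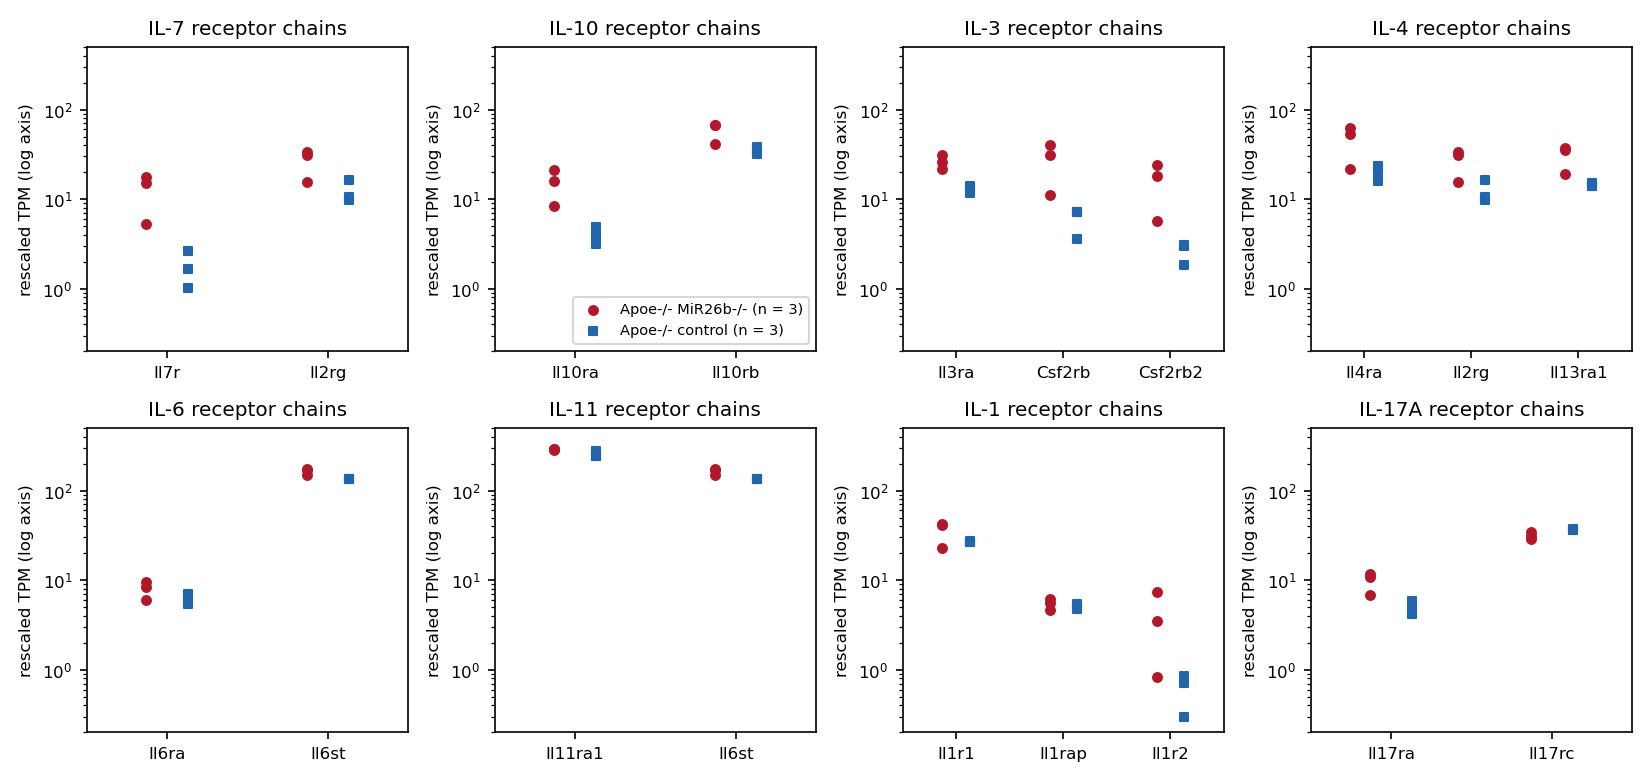
Rescaled TPM on a log axis for the chains of 8 interleukin receptors; circles left are the 3 Apoe-/- MiR26b-/- libraries and squares right the 3 Apoe-/- control libraries. Il7r, Il10ra and Il3ra lie higher in every Apoe-/- MiR26b-/- library. Il11ra1 also lies higher in every Apoe-/- MiR26b-/- library, at 287.6 to 293.6 TPM against 242.8 to 276.9 TPM in Apoe-/- control libraries. Il17rc lies lower in every Apoe-/- MiR26b-/- library, at 29.0 to 34.46 TPM against 36.01 to 37.27 TPM in Apoe-/- control libraries.

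The ligand genes were measured in the same RNA. Of 35 ligand genes with a row, 21 were tested, and 7 rose and 1 fell, against 6.5% and 3.84% of all tested genes. Il6 had the largest difference among those that passed, with 17.5, 24.2 and 2.27 CPM in Apoe-/- MiR26b-/- and 0.340, 0.845 and 0.304 CPM in Apoe-/- control libraries (log2 4.88, SE 0.95, adjusted p 0.0338), and knockout replicate 3 was far below the other knockouts. Il1b was at 3.87 (SE 0.76, adjusted p 0.0340) and Il1a at 2.84 (SE 0.52, adjusted p 0.0322) on the log2 scale, while their signalling chains Il1r1 and Il1rap did not pass. Il7, the ligand of the IL-7 receptor, had 2.08, 2.71 and 2.82 CPM in Apoe-/- MiR26b-/- and 1.32, 1.56 and 1.46 CPM in Apoe-/- control libraries (log2 0.81, SE 0.17, adjusted p 0.0397).

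Il33, Lif and Il15 rose by 1.21, 1.79 and 0.41 on the log2 scale (adjusted p 0.0377, 0.0381 and 0.0437), and the IL-17 family gene Il17b fell by 0.91 (adjusted p 0.0337). Il10, the ligand of Il10ra, was between 0 and 0.228 CPM in all libraries (log2 0.97, adjusted p 0.503), and Il3 was too low to test. Il5 had a log2 difference of 0.55 (adjusted p 0.494). Of the soluble antagonists, Il18bp, which captures IL-18, rose by 1.59 (SE 0.31, adjusted p 0.0341), and the IL-1 receptor antagonist Il1rn had 40.2, 52.8 and 7.23 CPM in Apoe-/- MiR26b-/- and 7.60, 2.61 and 1.45 CPM in Apoe-/- control libraries, overlapping groups with an adjusted p of 0.0676.

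Downstream of the receptors, among the Janus kinase and STAT genes described here, Stat2, which is better known from interferon signalling, rose by 0.71 on the log2 scale (SE 0.07, adjusted p 0.0107). Of those that did not pass, the 3 with the lowest p were Jak3, the kinase that binds the common gamma chain, at a log2 difference of 0.85 (SE 0.25, adjusted p 0.0756), Stat4, which acts below the IL-12 receptor, at 1.44 (SE 0.45, adjusted p 0.0879), and Jak1 at 0.22 (SE 0.10, adjusted p 0.187). Stat3, Stat5a and Stat6, which act below the IL-6, IL-7 and IL-4 receptors, were at 0.34, 0.04 and 0.11 (adjusted p 0.193, 0.656 and 0.278). Of 8 feedback inhibitors 1 rose, against 6.5% of all tested genes. It was Socs3, which is induced by IL-6 type cytokines, with 70.1, 61.7 and 21.6 CPM in Apoe-/- MiR26b-/- and 15.0, 12.5 and 10.9 CPM in Apoe-/- control libraries (log2 1.9985, SE 0.42, adjusted p 0.0387). Of 8 adaptors of the IL-1 and IL-17 receptors 0 passed in either direction, and Myd88 had the lowest p of them (log2 0.57, SE 0.15, adjusted p 0.0573).

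The genes of the IL-1 receptor family include 6 that lie together on chromosome 1, Il1r2, Il1r1, Il1rl2, Il1rl1, Il18r1 and Il18rap, over 0.478 Mb from 40074079 to 40551705. Mir26b lies on the same chromosome at 74394310 to 74394394, 33.8 to 34.3 Mb away. Of these 6 genes 0 passed, and their log2 differences ranged from 0.11 for Il1r1 (SE 0.18) to 2.86 for Il1r2 (SE 0.82). No difference between these neighbours was tested. The labels do not give the genetic background around the deleted locus.

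Promoters are shown for Il7r and Il12rb2, the receptors that passed and had a RefSeq promoter entry holding the STAT motif TTCNNNGAA. Each window spans the start of transcription, with most of its bases before it, on GRCm38.p6 and on the minus strand in both cases, and the motif is in capitals. The Il7r window is chr15:9529827-9530126 and that of Il12rb2 is chr6:67376139-67376438.
Il7r promoter: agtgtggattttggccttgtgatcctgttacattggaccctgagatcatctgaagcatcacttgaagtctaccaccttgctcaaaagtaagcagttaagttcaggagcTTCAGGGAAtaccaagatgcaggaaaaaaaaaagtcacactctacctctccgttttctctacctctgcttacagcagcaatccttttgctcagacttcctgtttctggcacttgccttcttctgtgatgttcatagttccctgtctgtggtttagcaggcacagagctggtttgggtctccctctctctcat
Il12rb2 promoter: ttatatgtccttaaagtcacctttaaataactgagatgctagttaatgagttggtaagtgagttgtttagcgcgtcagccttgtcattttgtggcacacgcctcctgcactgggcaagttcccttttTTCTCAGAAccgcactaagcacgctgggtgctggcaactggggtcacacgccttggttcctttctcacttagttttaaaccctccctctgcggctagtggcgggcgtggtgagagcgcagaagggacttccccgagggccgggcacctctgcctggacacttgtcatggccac

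Relative to the start, the motif begins at -142 in Il7r and at -123 in Il12rb2. TTCNNNGAA reads the same on both strands, and it was in 5 of 39 promoter windows of 33 receptor genes, 12.8%, against 8.3% of 32851 windows of all genes. The 5 genes were Il7r, Il12rb2, Il18r1, Il1r2 and Il31ra. GAGGAA, the core letters bound by the myeloid and B cell factor PU.1, searched on both strands, was in 14 of the 39 windows, 35.9%, against 28.3% of all windows, and in neither of the windows printed. A match of letters is no evidence of binding, and windows without one say nothing about either factor.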

How the data were processed

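The submitters' processing notes name kallisto 0.46.2, Trim Galore 0.6.5, FastQC 0.11.8 and the build GRCm38. Per the labels' protocols, RNA came from a column kit with a mean integrity number of 7.0. The authors deposited an estimated count per gene and library, as kallisto makes it, which is not a whole number, and TPM values rescaled to sums of 955527 to 1034723, used here as a length-corrected signal. How the rescaling was done is not given in the sources used here. Counts were rounded, filtered with filterByExpr (minimum count 10), scaled by TMM and fitted in edgeR 4.0.16 (quasi-likelihood test, all 6 libraries, no covariates) in R 4.3.3, with Benjamini-Hochberg adjustment over 17392 genes and a threshold of 0.05. SE is the log2 difference divided by the root of F, and log2 CPM used a prior count of 2. The biological coefficient of variation was 0.164. The script was tested on simulated data. Whether libraries keep strand is not stated, so antisense and overlapping genes may share reads. No pair of libraries within a genotype agreed within sampling noise (mean chi-square per gene 12.2 to 110).

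Members, classes and lists were chosen with earlier results of these data known. Every receptor was named. Per-library values were given for those that passed and, in each class, for the 4 others of highest mean TPM, and some further genes were chosen after their values were seen. Of other lists, genes that passed and up to 3 more of lowest p were named, with some chosen as partners of a receptor. 1 item of the Janus kinase and STAT list is not reported here. The microRNA sites come from the longest annotated 3′ UTR of complete protein-coding transcripts (GENCODE mouse release M21). Alternatives were DESeq2 1.42.0, limma 3.58.1 (voom with and without sample weights, and log2(TPM + 0.1) and log2(TPM + 1)), 3 other scalings, 3 other filters, summed copies, the replicate number as a block and omission of each library.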

Additional observations from a re-analysis of the deposited data

How the results depend on the processing

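Direction was stable for the 6 receptors that passed, in every alternative that tested them, but the count that passed was not. As reported, 5 receptors were higher and 1 lower, with 4, 0 and 1 higher in the leukocyte, stromal and broad classes and 1798 genes of all called. DESeq2 gave 12 higher (7, 1 and 4 by class; 3400 of all genes), limma-voom 1 higher and 0 lower (1, 0 and 0; 1073), voom with sample weights 17 higher and 2 lower (11, 1 and 5; 5883), log2(TPM + 0.1) 3 and 0 (broad 0; 942) and log2(TPM + 1) 2 and 0 (leukocyte 2, broad 0; 712). Library size alone, median-of-ratios and upper-quartile scaling, and a mean log2 CPM of at least 1, each gave 2 broad receptors, Il10rb being added, and that last filter removed Il5ra, leaving 0 lower. Without a filter there were 2 broad receptors and 1 stromal, Il20ra. Leaving out each library gave 0 to 17 higher and 0 to 1 lower (0 to 9, 0 to 2 and 0 to 6 by class; 0 to 5079 of all genes). The cause was not tested.

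Correlations of same-numbered deviations were -0.09, 0.23 and 0.08. With 3 libraries in each group they cannot show whether the replicate numbers pair the libraries. With the replicate block 9 receptors were higher, 7 leukocyte, 1 stromal and 1 broad, Il13ra1 losing its call.

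Of the receptors' log2 differences under single alternatives, 502 kept direction and side of the threshold, 43 no longer passed, 40 newly passed and 15 changed sign, all in genes that did not pass. Il31ra turned to 0.0073 with library size alone, 0.0047 with limma-voom and 0.059 with sample weights, and Il17rb to 0.0594 with sample weights. Over the omissions of 1 library, log2 differences ran from -0.20 to 0.24 for Il31ra, -0.16 to 0.043 for Il17rb, -0.11 to 0.16 for Il2rb, -1.70 to 0.30 for Il9r, -0.0618 to 0.40 for Il13ra2 and -0.0021 to 0.30 for Il1r1. No scaling moved the median of all genes by over 0.1. At this depth the 8 genes stayed below the filter row by row, and Il12rb1 and Il11ra2 were tested only with their copies summed or under other filters.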
